A study of Mus musculus with 2 samples.

Results

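Siglecf-positive neutrophils of the mouse gingiva were 110 of 3854 neutrophils in the 10% Tet2-/- BMT library and 477 of 4976 neutrophils in the 10% Tet2+/+ BMT library, where BMT is bone marrow transplantation. They were chosen by their counts of unique molecular identifiers (UMIs, each 1 captured RNA molecule) in every barcode with 500 UMIs or more, 250 genes or more and at most 10% mitochondrial UMIs. A neutrophil had S100a8 and S100a9 at 3% or more of its UMIs, at most 1 UMI over Fn1, Vcan, Ccr2, C1qa, C1qb and Cd79a, and Camp, Ltf and Ngp together under 1%. It was Siglecf-positive with 2 Siglecf UMIs or more and no UMI of Epx or Prg2, the eosinophil granule genes, a last criterion that removed 0 cells. The cells thus made up 1.15% of the 9596 kept cells in the 10% Tet2-/- BMT library and 4.09% of the 11672 kept cells in the 10% Tet2+/+ BMT library.

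RNA of single gingival CD11b+ cells was sequenced in 1 library for each group, after about 20000 cells had been loaded for each. Recipients of 10% Tet2-/- marrow and recipients of 10% Tet2+/+ marrow both carried a ligature, a thread tied round a tooth that inflames the gum and causes periodontitis, for 5 days at week 12 after transplantation. Per the protocol, CD45.2+CD11b+ cells were sorted from the 10% Tet2-/- BMT mice and CD45+CD11b+ cells from the 10% Tet2+/+ BMT mice, although both sample titles read CD45.2+CD11b+, so that marrow genotype and sort cannot be told apart in any comparison of the libraries. The labels give no strain, sex, number of mice or pooling and do not define the 10%. With 1 library per group no test between the groups was possible. Each interval below is a 95% interval for counting error only, without the variation between mice. Intervals of levels and ratios, taken on summed UMIs, also leave out the variation between cells.

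Siglec-F is a cell surface lectin that binds sialic acids and carries inhibitory tyrosine motifs in its cytoplasmic tail. In mice it is best known from eosinophils and alveolar macrophages, and neutrophils that carry it have been described in tumours and inflamed tissue. Neutrophils that enter tissue from blood are generally known to turn on genes for survival and cytokines. TET2 oxidises methylated cytosine in DNA, and loss of it in blood stem cells is a frequent form of clonal haematopoiesis.

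The label was checked against markers. All 15 genes of a neutrophil identity list were detected, with a summed level of 125705 CPM (a gene's UMIs scaled to a common total) in the Siglecf-positive cells against 230609 CPM in the Siglecf-zero neutrophils of the 10% Tet2-/- BMT library. The 10% Tet2+/+ BMT sums were 122403 CPM in Siglecf-positive and 248773 CPM in Siglecf-zero neutrophils. S100a8 and S100a9, which the rule asked for, made up most of the Siglecf-positive sums. Of the 15 genes, 11 were over 1.5-fold lower in Siglecf-positive cells of both libraries and 0 were higher. Over all tested genes 11.3% were lower and 33.4% higher. Ly6g, 1 of the 15, was seen in 12 of 110 and 41 of 477 Siglecf-positive cells. Csf3r, the receptor of the neutrophil growth factor G-CSF, stood at 1066 CPM and 992 CPM in the Siglecf-positive cells of the 10% Tet2-/- and 10% Tet2+/+ BMT libraries. Of 12 eosinophil genes, 9 had no UMI in the Siglecf-positive cells of the 10% Tet2-/- BMT library and 7 had none in those of the 10% Tet2+/+ BMT library. Prg3, Ear1, Ear6, Alox15 and Gata1, which the rule did not use, were at 0 in both. Ear2, Ccr3 and Cebpe had UMIs in both, and Il5ra and Gata2 in the 10% Tet2+/+ BMT library only. Prg3, Ear6, Alox15 and Gata1 were also at 0 in the Siglecf-zero neutrophils of the 10% Tet2-/- BMT library, so that their absence there separates little. Cebpe, which neutrophil precursors also express, made up most of the summed eosinophil list of 132 CPM in the Siglecf-positive against 48.4 CPM in the Siglecf-zero neutrophils of the 10% Tet2-/- BMT library. The list summed to 75.4 CPM against 44.2 CPM in the 10% Tet2+/+ BMT library. In Siglecf-positive cells the log2 ratio of Cebpe, 10% Tet2-/- over 10% Tet2+/+ BMT, was 0.93. Without 4 cells described further on it was 0.45. The neutrophil genes, of which the rule used S100a8 and S100a9, were thus all present in the summed cells, most of them at lower levels. The eosinophil transcripts Prg3 and Ear1 were at 0, while the eosinophil list summed higher in Siglecf-positive than in Siglecf-zero cells of both libraries.

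Markers of the other cell types that a CD11b+ gate could hold were read in the same way. The mast cell and basophil list summed to 11.03 CPM in Siglecf-positive and 3.82 CPM in Siglecf-zero neutrophils of the 10% Tet2-/- BMT library, and to 4.78 and 6.01 CPM under 10% Tet2+/+ BMT. The monocyte and macrophage list, part of which the rule limited, summed to 1217 against 988 CPM in the 10% Tet2-/- BMT library and to 1028 against 978 CPM in the 10% Tet2+/+ BMT library, most of it Apoe. Nkg7 carried the T and NK cell list in the 10% Tet2-/- BMT Siglecf-positive cells, at 189 CPM, or 3.24 CPM without 4 cells described further on. The list, with Cd3e, Trac, Ncr1 and Klrb1c at 0 in the Siglecf-positive cells of the 10% Tet2-/- BMT library, summed to 205 against 86.6 CPM there and to 101 against 63.4 CPM in the 10% Tet2+/+ BMT library. B cell, dendritic cell and epithelial lists summed to 119.9 CPM or less in Siglecf-positive cells of either library.

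The 5 marker genes are not neighbours in the genome, although Ltc4s and Scimp share a chromosome. In GENCODE M21 coordinates of GRCm38, Siglecf lies at chr7:43351341-43359531 on the plus strand, Ltc4s at chr11:50236461-50238616 on the minus strand and Igfbp6 at chr15:102144362-102149511 on the plus strand. Scimp lies at chr11:70790932-70812586 and Ccrl2 at chr9:111054486-111057519, both on the minus strand. The 250 bases before the RefSeq start of the first 3 genes are shown because these genes were high in the same cells. They are read 5′ to 3′ on the gene's strand from RefSeq's GRCm38.p6 table, where the windows are chr7:43351091-43351340, chr11:50238533-50238782 and chr15:102143936-102144185. The Ltc4s window reaches into the GENCODE gene, and the Igfbp6 window ends before the GENCODE gene begins, with the first 30 bases after its RefSeq start in no GENCODE transcript. Capitals mark a match to GAGGAA, the core of PU.1 sites, or to its reverse complement.
Siglecf: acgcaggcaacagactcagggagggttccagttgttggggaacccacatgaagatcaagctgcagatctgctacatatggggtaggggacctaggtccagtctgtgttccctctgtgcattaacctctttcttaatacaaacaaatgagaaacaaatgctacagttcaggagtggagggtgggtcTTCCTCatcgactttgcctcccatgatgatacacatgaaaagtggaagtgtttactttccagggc
Ltc4s: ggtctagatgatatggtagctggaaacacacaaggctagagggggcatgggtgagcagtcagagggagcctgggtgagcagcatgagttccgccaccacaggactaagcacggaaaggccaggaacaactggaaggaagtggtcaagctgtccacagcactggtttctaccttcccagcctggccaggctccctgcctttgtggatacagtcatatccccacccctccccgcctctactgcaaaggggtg
Igfbp6: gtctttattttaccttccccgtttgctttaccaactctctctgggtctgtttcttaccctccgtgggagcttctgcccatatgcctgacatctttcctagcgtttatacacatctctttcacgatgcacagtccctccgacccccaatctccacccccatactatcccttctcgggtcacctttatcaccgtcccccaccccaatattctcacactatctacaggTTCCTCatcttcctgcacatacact
Siglecf and Igfbp6 each held 1 match, which began 65 and 25 bases before the RefSeq start, and Ltc4s held none. GAGGAA on either strand occurs in 23.4% of the 32536 promoters of the table. Neither TTGCNNAA, a pattern of C/EBP sites, found in 9.57% of promoters, nor TGANTCA, the AP-1 site, found in 6.73%, matched in these 3 windows. Rgs10 and the 3 entries of Ccrl2 matched none of the 3 motifs.

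Siglecf itself was sparse in every cell. The Siglecf-positive cells had a median of 3 Siglecf UMIs in both libraries, with a range of 2 to 11 in the 10% Tet2-/- BMT library and of 2 to 14 in the 10% Tet2+/+ BMT library. Summed over the cells, Siglecf had 345 UMIs, or 476 CPM (427 to 529), and 1578 UMIs, or 538 CPM (512 to 565). A further 187 neutrophils of the 10% Tet2-/- BMT library and 431 of the 10% Tet2+/+ BMT library had exactly 1 Siglecf UMI, and 3557 and 4068 had 0. The last are the Siglecf-zero neutrophils used for comparison.

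The share of neutrophils that were Siglecf-positive was 2.85% (exact Clopper-Pearson interval 2.35 to 3.43) in the 10% Tet2-/- BMT library and 9.59% (8.78 to 10.4) in the 10% Tet2+/+ BMT library. The 2 intervals do not overlap, but they hold no variation between mice, and the sort differed per the protocol, though not per the sample titles. Since Siglecf chose the cells, the shares are a description. Thinned to 2000 UMIs per cell, 43 of 3621 neutrophils, or 1.19% (0.861 to 1.60), and 160 of 4545 neutrophils, or 3.52% (3.00 to 4.10), kept 2 Siglecf UMIs or more, with 233 and 431 shallower cells left out. The share was lower in the 10% Tet2-/- BMT library under every other cell filter tried.

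**Figure D1:**
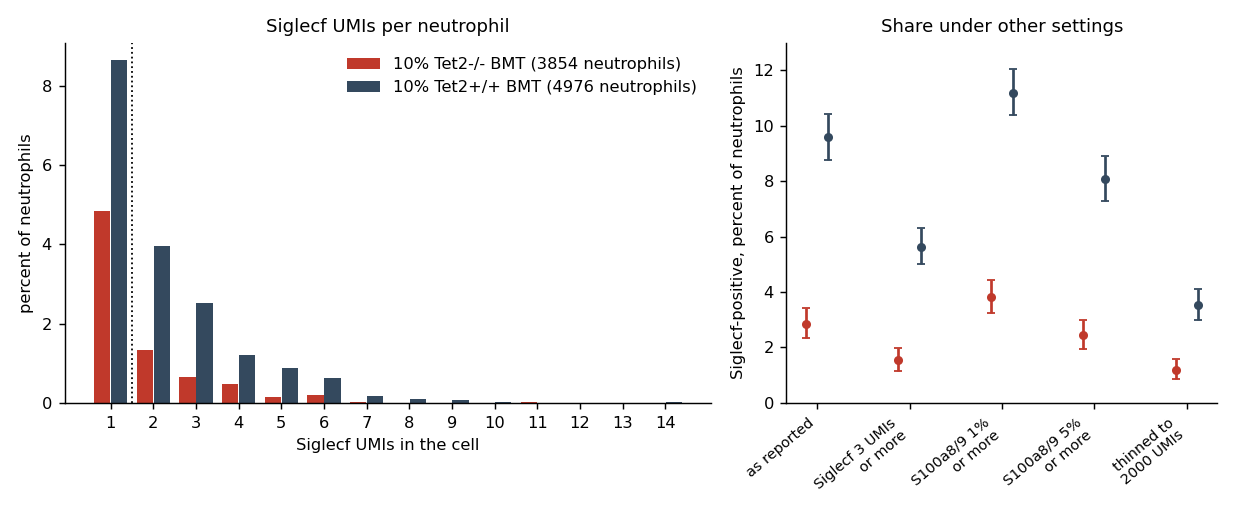
Left, percent of neutrophils in each library by Siglecf UMI count from 1 to 14, with the limit of 2 UMIs dotted. Right, Siglecf-positive percent of neutrophils as reported and under 4 other settings, points with exact 95% binomial intervals for counting error: 10% Tet2-/- BMT lies at 2.85% and 10% Tet2+/+ BMT at 9.59% as reported, and the red points lie lower in all 5 pairs.

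B and T cells of the same libraries, which should lack Siglecf, also carried it. Of B cells, 16 of 438, or 3.65% (2.10 to 5.86), had 2 Siglecf UMIs or more in the 10% Tet2-/- BMT library and 27 of 610, or 4.43% (2.94 to 6.37), in the 10% Tet2+/+ BMT library. Their median depth was 8076 and 6009 UMIs, against 3934.5 and 4002 UMIs in neutrophils. Of T cells, at a median of 13773 and 10275 UMIs, 3 of 203 and 18 of 291 reached 2 UMIs. The neutrophil share of the 10% Tet2-/- BMT library was thus not above that of its B cells, while the share of the 10% Tet2+/+ BMT library was.

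At 2000 UMIs per cell the B cell shares with 2 Siglecf UMIs or more were 0.926% (0.253 to 2.35) and 0.679% (0.185 to 1.73), and the T cell shares were 0 of 202, which at 3 counts allows up to 1.49% and has an exact upper bound of 1.81%, and 0.692% (0.0839 to 2.48). With 1 UMI or more, 4.78% (4.11 to 5.52) of thinned neutrophils and 3.24% (1.78 to 5.38) of thinned B cells of the 10% Tet2-/- BMT library carried Siglecf, against 11.9% (10.9 to 12.8) and 2.89% (1.69 to 4.58) in the 10% Tet2+/+ BMT library. On detection of Siglecf alone, then, neutrophils did not stand above B cells beyond counting error in the 10% Tet2-/- BMT library. By level they did, at 30.6 CPM over all neutrophils against 14.6 CPM over B cells there, and at 89.5 CPM against 18.3 CPM in the 10% Tet2+/+ BMT library. Of thinned T cells, 0.990% (0.120 to 3.53) and 2.77% (1.20 to 5.38) carried 1 Siglecf UMI or more. The neutrophils of both libraries lay above these shares beyond counting error. T cells had Siglecf at 3.76 and 21.6 CPM. Free RNA, read from barcodes with 1 to 50 UMIs, held Siglecf at 12.5 and 60.4 CPM. At the 3.99% and 17.2% of neutrophil UMIs estimated to be free RNA this comes to 0.500 and 10.4 CPM. The estimate counts all immunoglobulin and haemoglobin UMIs as free RNA. The estimated share was 3.94% in Siglecf-positive and 4.01% in Siglecf-zero cells of the 10% Tet2-/- BMT library, and 6.26% and 20.1% in those of the 10% Tet2+/+ BMT library. In the latter, haemoglobin took 0.00225% and 0.0416% of UMIs and immunoglobulin 0.0159% and 0.0167%, so that the difference came from haemoglobin. With free RNA subtracted, 1297 genes passed in the comparison of these cells given below, against 1200 without.

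Siglecf UMIs came together with those of other genes. Counting Ltc4s, Scimp and Rgs10, 69 of the 110 Siglecf-positive cells of the 10% Tet2-/- BMT library (62.7%) held at least 2 of these 3 genes, against 1.07% of Siglecf-zero neutrophils. In the 10% Tet2+/+ BMT library 377 of 477 (79.0%) did, against 2.83%. Of neutrophils with 1 Siglecf UMI, 10.7% and 28.8% did. B cells with 2 Siglecf UMIs or more carried the same genes, 13 of 16 and 20 of 27 holding at least 2 of the 3, at median depths of 11188 and 11202 UMIs. B cells without Siglecf UMIs were not counted, so these B cell counts have no comparison. The part of doublets in the counts was not tested. The 3 genes were taken from those with the largest ratios below, so these counts describe the cells and are no separate evidence.

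The Siglecf-positive cells were deeper and differed in composition from other neutrophils. They had a median of 5714 UMIs and 1848.5 genes per cell, against 3897 UMIs and 1135 genes in Siglecf-zero neutrophils of the 10% Tet2-/- BMT library. The 10% Tet2+/+ BMT medians were 5567 UMIs and 1941 genes against 3866.5 UMIs and 1200 genes. At 2000 UMIs per cell the median genes were still 922 against 725 and 972 against 762. Mitochondrial transcripts made up a median of 1.95% against 0.321% and of 2.13% against 0.403% of a cell's UMIs, and S100a8 with S100a9 8.91% against 16.4% and 7.60% against 17.5%. A rule that asks for 2 UMIs of a sparse gene favours deep cells, and the levels below are sums over cells of unequal depth. In the comparison of the next paragraph 1200 genes passed, 897 higher and 303 lower. With every cell thinned to 2000 UMIs 1133 passed, among them 728 of the 897 and 254 of the 303. With Siglecf-zero cells weighted to the depth of the Siglecf-positive cells 1145 passed, among them 838 and 234.

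Levels in Siglecf-positive and Siglecf-zero neutrophils were compared as log2 ratios of summed counts, as CPM with a pseudocount of 10 CPM added, and a gene was called when it passed 1.5-fold in the same direction in both libraries. Of 2689 genes with 50 CPM or more in either kind of cell and 100 UMIs or more over both, 897 (33.4%) were higher in the Siglecf-positive cells and 303 (11.3%) were lower. The split depended on the scaling. Under TMM, a scaling that trims extreme genes, log2 ratios shift down by 0.81 and 0.77 in the 10% Tet2-/- and 10% Tet2+/+ BMT libraries before the pseudocount, which makes the shift of low genes smaller, and 322 genes were higher and 1007 lower. Under median-of-ratios scaling the shifts were 0.52 and 0.69, with 413 higher and 801 lower. The median log2 ratio of all genes was 0.28 and 0.32 as reported and -0.46 and -0.38 under TMM, and list counts and medians below are to be read against these and against the 33.4% and 11.3%. The cells were chosen by their own counts, so these values describe them without a test.

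The highest ratios belonged to genes nearly absent from other neutrophils. Ltc4s, the enzyme that joins glutathione to leukotriene A4 to make leukotriene C4, had 244 CPM in Siglecf-positive and 7.64 CPM in Siglecf-zero neutrophils of the 10% Tet2-/- BMT library, a 31.9-fold difference (25.2 to 40.6). Its level in the 10% Tet2+/+ BMT library was 296 CPM and 14.1 CPM, a 20.9-fold difference (18.2 to 24.2). A Ltc4s UMI was seen in 54.5% and 61.4% of Siglecf-positive cells and in 1.60% and 3.54% of Siglecf-zero cells.

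Adamdec1, a secreted metalloproteinase of the ADAM family, had 196 CPM against 2.87 CPM in the 10% Tet2-/- BMT library, 68.3-fold (48.5 to 97.8), and 181 CPM against 5.15 CPM in the 10% Tet2+/+ BMT library, 35.1-fold (28.03 to 44.4). Its UMIs were seen in only 24 of 110 and 101 of 477 Siglecf-positive cells, so that it was high in a minority of them.

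Scimp, a transmembrane adaptor that binds Src family kinases, was also among the 20 genes with the largest ratios. It had 203 against 7.71 CPM and 387 against 25.2 CPM, 26.3-fold (20.5 to 33.7) and 15.4-fold (13.8 to 17.2) higher. Rgs10, which speeds the switching off of G proteins, had 254 against 15.2 CPM and 382 against 25.5 CPM, and its relative Rgs1 had 374 against 42.3 CPM and 482 against 75.2 CPM. Gpr171, a G protein-coupled receptor, was at 80.0 against 3.31 CPM and 95.2 against 5.09 CPM. Abi3, a component of actin regulation, H1f0, a linker histone, Tmem273, Banf1 and Otulinl were 6.31-fold to 15.6-fold higher in the 2 libraries. Signalling adaptors as a list were not high. Of 17 tested genes of adaptors and ITIM signalling, Scimp and the kinase Csk were higher, with log2 ratios of 0.94 and 1.04 for Csk, and Lilr4b was lower, while under TMM 1 was higher and 10 were lower. The list medians as reported, -0.02 and 0.02, lay below those of all genes.

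Mrpl52 and Mrpl42, proteins of the mitochondrial ribosome and also among the 20, were 7.44-fold and 9.54-fold higher in the 10% Tet2-/- BMT library and 8.17-fold and 8.22-fold higher in the 10% Tet2+/+ BMT library. Ndufa5, a subunit of respiratory complex I, was 8.58-fold and 9.71-fold higher, and Lsm6 and Snrpf, proteins of the splicing machinery, between 6.17-fold and 7.06-fold. Bcl2a1a, of the Bcl-2 family that keeps neutrophils alive, had 347 against 60.3 CPM and 310 against 39.99 CPM, but it shares most of its sequence with Bcl2a1b and Bcl2a1d, between which reads can be split. Ccdc86 and Krtcap2 were also among the 20. Without 4 cells described further on, Snrpf fell from 150 to 98.7 CPM in the 10% Tet2-/- BMT Siglecf-positive cells. Krtcap2 fell there from 136 to 90.6 CPM and Ndufa5 from 92.4 to 71.2 CPM. Banf1 and Lsm6 were also lower there without those cells, and the rest of the 20 were higher. All 20 stayed past 1.5-fold in both libraries under TMM and under median-of-ratios scaling.

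The marker set of these cells also includes Igfbp6 and Ccrl2, which other neutrophils expressed as well. Igfbp6, a binding protein for insulin-like growth factors, had 270 against 62.8 CPM in the 10% Tet2-/- BMT library and 469 against 90.5 CPM in the 10% Tet2+/+ BMT library, 4.30-fold (3.67 to 5.02) and 5.18-fold (4.82 to 5.57). Ccrl2, a receptor that binds chemerin without signalling, had 2154 against 615 CPM and 2332 against 535 CPM, 3.50-fold (3.32 to 3.70) and 4.36-fold (4.23 to 4.50). A Ccrl2 UMI was present in 53.8% and 52.8% of Siglecf-zero cells. Ccrl2 was thus the most abundant of the 5 markers and had the smallest ratio of the 4 that the rule did not use.

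**Figure D2:**
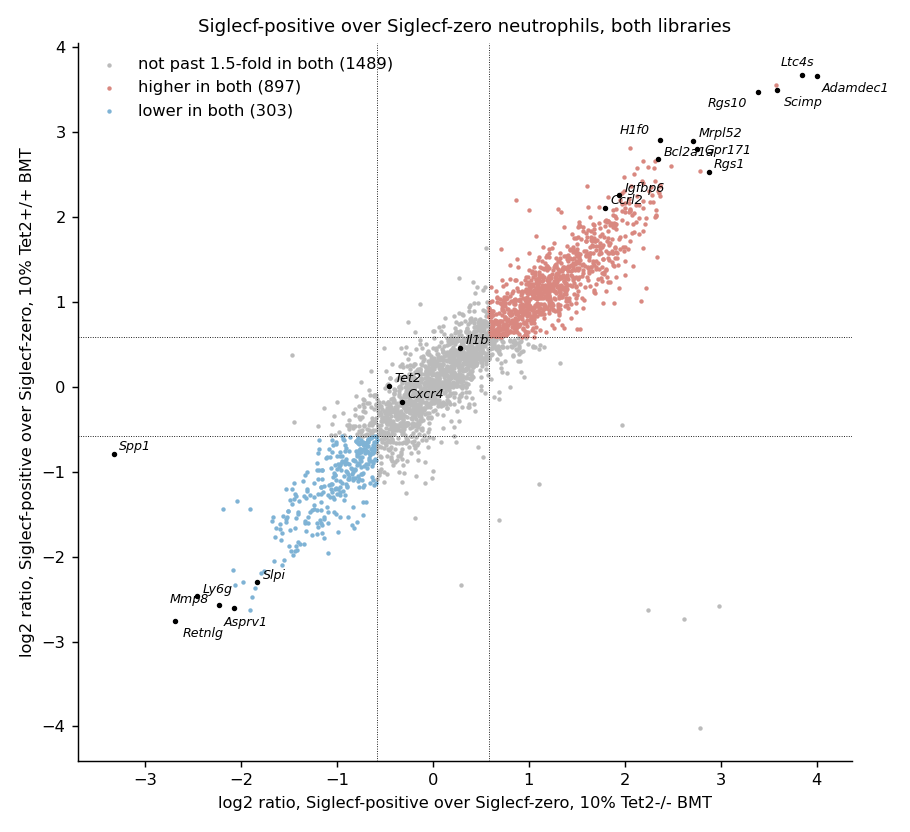
Log2 ratio of Siglecf-positive over Siglecf-zero neutrophils for 2689 genes, 10% Tet2-/- BMT on the horizontal and 10% Tet2+/+ BMT on the vertical axis, scaled by total counts with 10 CPM added; dotted lines mark 1.5-fold. Adamdec1, Ltc4s, Scimp and Rgs10 lie at the upper right and Retnlg, Ly6g, Mmp8 and Asprv1 at the lower left in both libraries, and under TMM scaling all points would move to the left by up to 0.81 and down by up to 0.77.

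At the other end, genes of circulating neutrophils were low. Retnlg, a resistin-like protein of mature neutrophils, had 2655 CPM in Siglecf-positive and 17136 CPM in Siglecf-zero neutrophils of the 10% Tet2-/- BMT library, where Siglecf-zero cells were 6.45-fold (6.17 to 6.75) higher. In the 10% Tet2+/+ BMT library it had 2378 CPM against 16133 CPM, with Siglecf-zero cells 6.78-fold (6.63 to 6.95) higher. Ly6g, the surface protein by which mouse neutrophils are usually sorted, was at 34.5 against 235 CPM and 40.9 against 271 CPM.

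Mmp8, the neutrophil collagenase, was at 241 against 1171 CPM and 182 against 1125 CPM. Slpi, an inhibitor of neutrophil elastase, Padi4, which converts histone arginines to citrulline, Ccl6, Ifitm6, Bmx, Stfa1, Rdh12, S100a6, Xdh, Timp2 and Asprv1 were also among the 15 lowest genes. Siglecf-zero cells were 3.42-fold to 7.95-fold higher for these genes.

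By gene list, the mature circulating neutrophil genes and the matrix proteases were lower together. Of 15 tested genes of the mature circulating list, 11 were lower and 0 higher, with a median log2 ratio of -1.16 in the 10% Tet2-/- and -0.98 in the 10% Tet2+/+ BMT library, against 0.28 and 0.32 over all genes. Of 8 matrix genes 7 were lower, with medians of -1.47 and -1.63. They included Mmp8, Mmp9 (678 against 1525 CPM and 813 against 1615 CPM), the urokinase receptor Plaur (179 against 532 CPM and 186 against 555 CPM) and Adam8. Of 9 receptors for chemokines and other attractants, Fpr1, Fpr2, C5ar1 and Cxcr2 were lower and only Ccrl2 was higher. Cxcr4, the receptor linked to neutrophil ageing, was not past the limit at 258 against 324 CPM and 280 against 318 CPM. Under TMM it was past it and lower in both libraries, with log2 ratios of -1.11 and -0.92, and under median-of-ratios scaling at -0.82 and -0.85.

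Mitochondrial transcripts were higher throughout. All 12 tested mitochondrially encoded genes were higher, with median log2 ratios of 1.97 and 2.12, and 11 remained past 1.5-fold under TMM. Of 17 nuclear genes of oxidative phosphorylation 16 were higher and 0 lower, with medians of 1.20 and 1.12, of which 6 passed under TMM. Atp5g1, a subunit of the ATP synthase, had 210 against 35.9 CPM and 237 against 44.9 CPM, and Cox6c, a subunit of cytochrome oxidase, 604 against 177 CPM and 753 against 222 CPM. A high mitochondrial share also marks damaged cells in such data, and the part of cell quality in these values was not tested.

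Ribosomal protein genes were higher in 67 of 78, with medians of 1.32 and 1.04 as reported and of 0.53 and 0.29 under TMM, where 12 were higher and 1 lower. The 10% Tet2-/- BMT medians include 4 deep cells described further on. In Siglecf-positive cells the median log2 ratio of 10% Tet2-/- over 10% Tet2+/+ BMT for these genes was 0.26 with those cells. Without them it was -0.35, with 0 genes higher and 6 lower. Of 16 tested genes of glycolysis, Hk2 alone was higher, at 183 against 57.5 CPM and 254 against 60.7 CPM, and Hk3, Slc2a3 and Slc16a3 were lower. Slc2a3 encodes a glucose transporter and Slc16a3 a lactate exporter. The list medians of -0.13 and -0.11 lay below those of all genes. Of 8 hypoxia genes Vegfa and Mif were higher and 0 lower. Vegfa, the vascular growth factor, had 142 against 61.0 CPM and 107 against 39.99 CPM, and neither gene was past the limit under TMM.

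Genes of lipid mediators were led by Ltc4s and cyclo-oxygenase 1. Ptgs1, which encodes that cyclo-oxygenase, had 112 against 18.5 CPM in the 10% Tet2-/- BMT library and 152 against 18.4 CPM in the 10% Tet2+/+ BMT library. Ptgs2, its inducible counterpart, was about level at 2038 against 1961 CPM and 1502 against 1475 CPM. Alox5 and Alox5ap, which make the leukotriene A4 that Ltc4s uses, were not past the limit, at 171 against 130 CPM and 182 against 140 CPM for Alox5. Cysltr1, a receptor for the leukotrienes made from leukotriene C4, was too sparse for the count limit, with 31.7 against 3.12 CPM and 55.9 against 3.83 CPM. Of 9 tested genes of this list 3 were higher and 0 lower, a share near the 33.4% of all genes, and under TMM 2 were higher and 3 lower.

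Of 10 survival and apoptosis genes, Bcl2a1a, Bcl2a1b, Bcl2a1d and Bax, the last a promoter of cell death, were higher and Fas was lower, which is near the shares of all genes. Under TMM 3 were higher and 4 lower. Mcl1 was not past the limit at 2060 against 2516 CPM and 2493 against 2509 CPM. Surface genes described on neutrophils aged in tissue were split, with Icam1, Clec5a, Itgax and Ccrl2 higher and Cd14 and Tlr2 lower of 13. These shares, too, were near those of all genes, and under TMM 4 were higher and 7 lower. Icam1, an adhesion molecule, had 192 against 60.2 CPM and 187 against 41.4 CPM. Itgax, which encodes CD11c, had 139 against 38.5 CPM and 197 against 37.8 CPM.

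Of 7 tested cytokine genes 1 was higher and 1 lower. Il1b was the most abundant of them, at 19111 against 15664 CPM in the 10% Tet2-/- BMT library and 18668 against 13617 CPM in the 10% Tet2+/+ BMT library, under 1.5-fold. Il1a was higher at 399.8 against 125 CPM and 407 against 71.1 CPM, 3.20-fold and 5.72-fold. Osm, oncostatin M, was lower at 412 against 917 CPM and 276 against 816 CPM. Tnf was past the limit only in the 10% Tet2+/+ BMT library, at 223 against 165 CPM and 183 against 72.5 CPM. Il6 had 2 UMIs and 0 UMIs in the Siglecf-positive cells of the 10% Tet2-/- and 10% Tet2+/+ BMT libraries.

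Of 9 interferon-stimulated genes 4 were lower and Cxcl10 alone was higher, and of 9 genes of the unfolded protein response 5 were higher. The unfolded protein response list, with Xbp1 at 221 against 96.1 CPM and 277 against 119 CPM, had medians of 0.79 and 0.99, which became -0.01 and 0.23 under TMM. Of 17 lysosomal genes 6 were higher, among them Ctss, Ctsa, Lamp1 and Grn, and Lamp2 and Psap were lower, near the shares of all genes, and under TMM 2 were higher and 5 lower. Il4ra and Chil3 were the 2 genes higher of 11 on the list of interleukin-4 response and antigen presentation, neither of them under TMM, and H2-D1, a class I molecule, was lower.

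**Figure D3:**
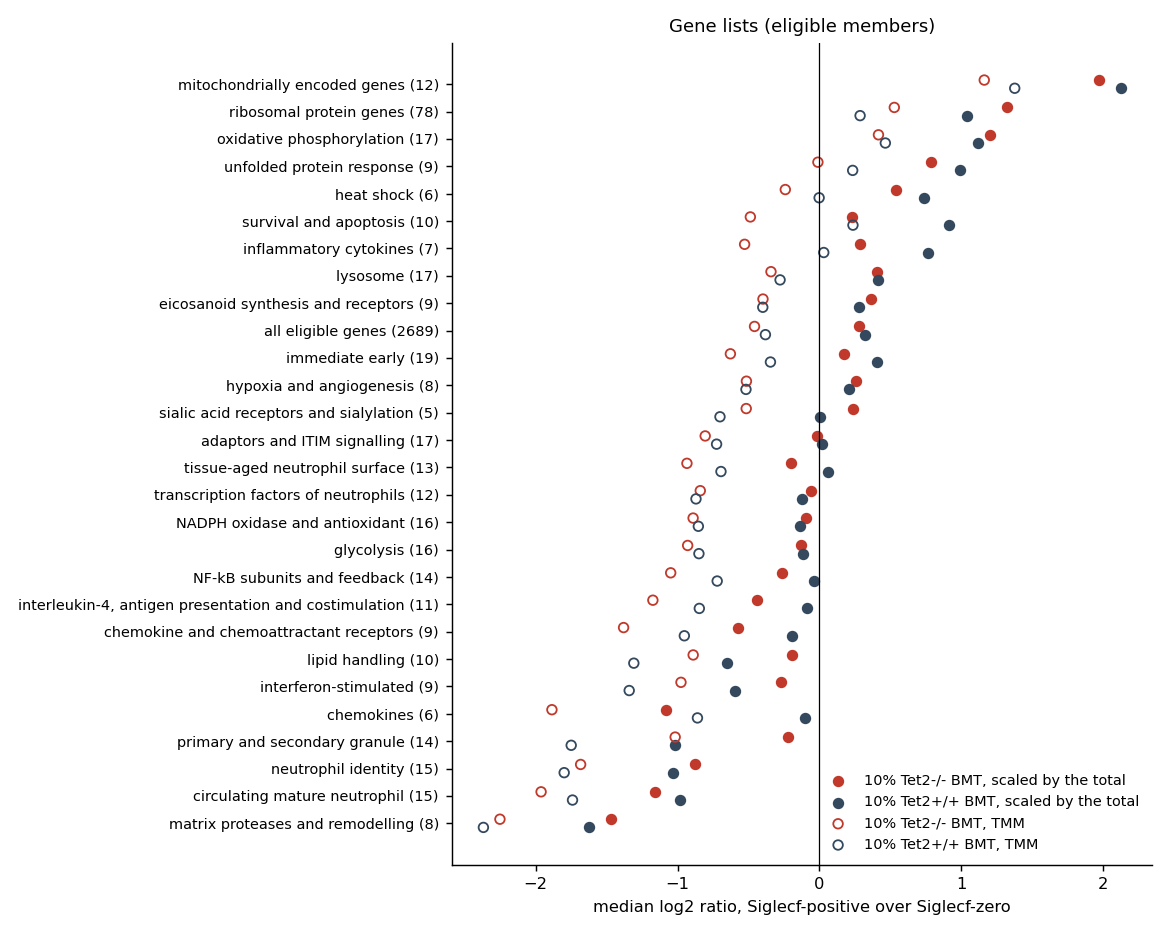
Median log2 ratio of Siglecf-positive over Siglecf-zero neutrophils per gene list, with the number of tested genes in brackets; filled points are scaled by total counts and open points by TMM, red for 10% Tet2-/- BMT and blue for 10% Tet2+/+ BMT. Mitochondrially encoded genes lie highest at 1.97 and 2.12 and matrix proteases lowest at -1.47 and -1.63, and each open point lies at a lower log2 ratio than its filled one, several of them across 0.

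Levels were also read along the Siglecf count itself, in bins of 0, 1, 2, 3 to 4 and 5 or more UMIs counted before thinning. The levels in each bin were taken after thinning every cell to 2000 UMIs. The bins thus differ in depth. The median before thinning was 4016.5 UMIs in the bin of 0 and 5996 UMIs in the top bin of the 10% Tet2-/- BMT library. In the 10% Tet2+/+ BMT library it was 4054 and 6797 UMIs, and the part of depth in the series below was not tested. The bins held 3328, 183, 51, 43 and 16 cells of the 10% Tet2-/- BMT library and 3663, 408, 194, 185 and 95 cells of the 10% Tet2+/+ BMT library. Of 2547 genes, 77 were higher in each bin than in the one before in both libraries, and 57 were lower in each. By rank correlation over the 5 bins these genes tie with Siglecf, and those with the largest difference in the library where it was smaller are named.

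Among the 10 most like Siglecf were Rgs10, H1f0, Rgs1, Gpr171, Ppia, Ccdc86, Mt1, Atp5g1 and Npm1. Rgs10 was at 12.8, 71.0, 225, 314 and 344 CPM along the bins of the 10% Tet2-/- BMT library and at 25.8, 131, 296, 381 and 437 CPM along those of the 10% Tet2+/+ BMT library. Rgs1 was at 37.1, 95.6, 255, 360.5 and 469 CPM and at 76.3, 151, 376, 427 and 668 CPM. Ppia, the abundant cyclophilin A, was at 149, 439.9, 794, 1093 and 1438 CPM and at 202, 739, 1214, 1392 and 1505 CPM. The last 2 bins of the 10% Tet2-/- BMT library overlapped within counting error for Rgs10 and Rgs1.

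Among the 10 most opposite were Lilra6, Padi4, Asprv1, Ifitm6, Ccl6, Slpi, Rdh12, Gpr141 and Cpne2. Slpi was at 1819, 1309, 696, 384 and 219 CPM along the bins of the 10% Tet2-/- BMT library and at 2843, 1462, 819.6, 332 and 311 CPM along those of the 10% Tet2+/+ BMT library. Ltc4s did not follow the order in the top bin of either library, at 6.61, 35.5, 196, 512 and 375 CPM and at 13.1, 100.5, 193, 354 and 337 CPM. Il1b stayed between 15515 and 24884 CPM in every bin. The mitochondrial percent of UMIs followed the bins as well, at 0.540, 1.01, 1.85, 2.44 and 2.62 in the 10% Tet2-/- BMT library and at 0.617, 1.22, 2.10, 2.72 and 3.36 in the 10% Tet2+/+ BMT library, and its part in these series was not tested.

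**Figure D4:**
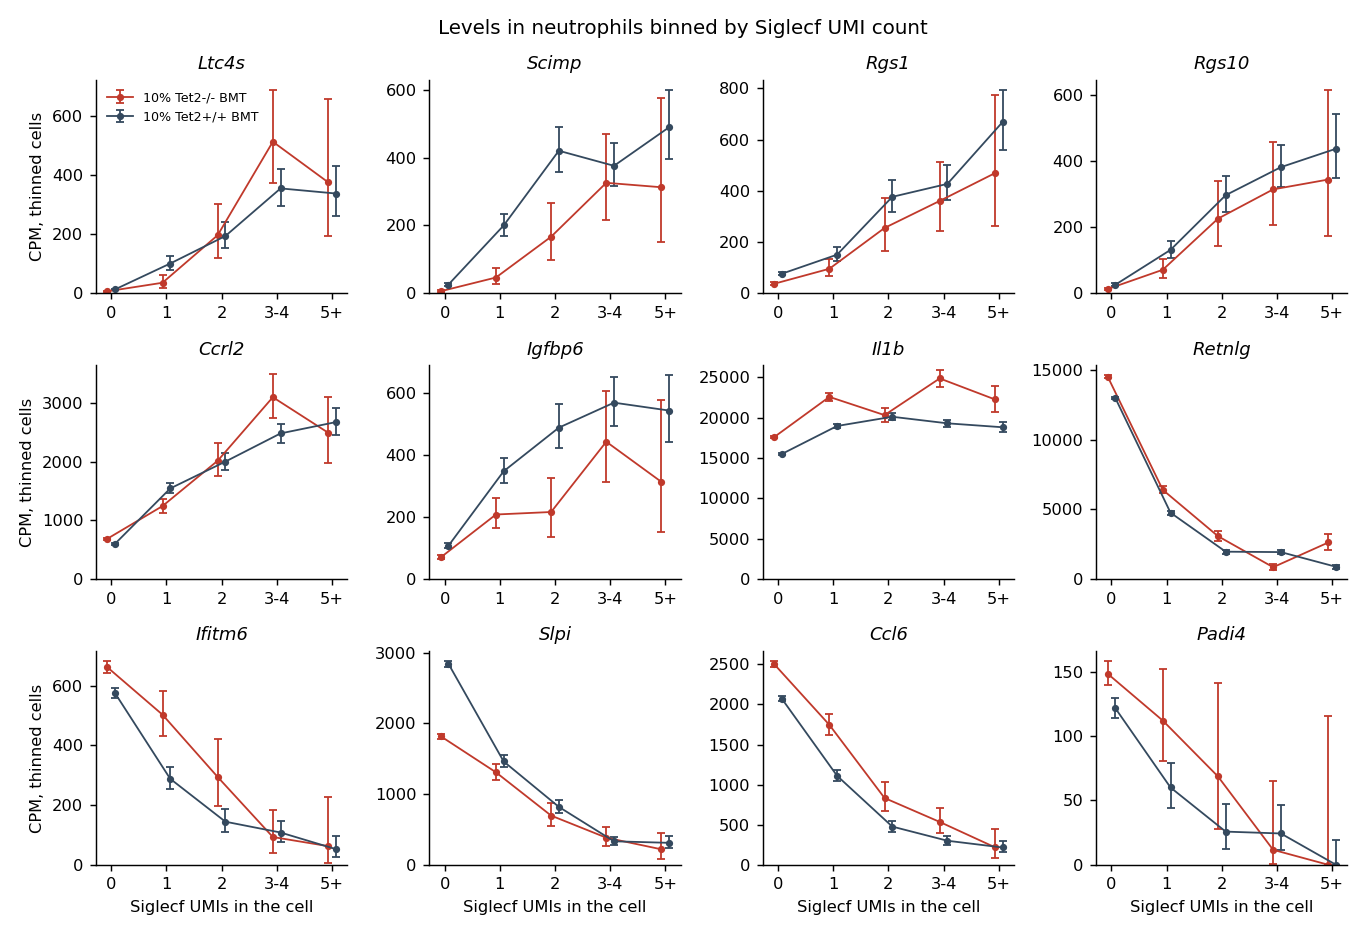
CPM of 12 genes in neutrophils thinned to 2000 UMIs and binned by their Siglecf UMI count before thinning (0, 1, 2, 3-4, 5+). Bars are exact 95% Poisson intervals for counting error, red for 10% Tet2-/- BMT and blue for 10% Tet2+/+ BMT. Each panel has its own scale from 0. Rgs10 climbs from 12.8 to 344 CPM and from 25.8 to 437 CPM, Slpi drops along the bins, and Il1b stays within 15515 to 24884 CPM.

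Cells just inside and outside the limits were alike in several markers. Siglecf-positive cells with S100a8 and S100a9 at 3 to 4% of UMIs, 18 and 61 cells, had Ltc4s at 322 CPM in the 10% Tet2-/- BMT library and 381 CPM in the 10% Tet2+/+ BMT library. Cells with 2 Siglecf UMIs or more that met the other limits but had S100a8 and S100a9 at 2 to 3%, 22 and 64 cells, had 424 and 473 CPM. Their Csf3r was at 1014 and 1125 CPM inside and at 939.8 and 1049 CPM outside, so that the S100 limit left out cells with neutrophil genes.

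The limit on Siglecf lay on a slope. Ltc4s was at 119 and 226 CPM in cells with 2 Siglecf UMIs, 51 and 197 cells, and at 57.5 and 105 CPM in those with 1 UMI. Of all kept cells, 314 under 10% Tet2-/- BMT and 1132 under 10% Tet2+/+ BMT had 2 Siglecf UMIs or more. Of these, the S100 limit left out 128 and 438. Among those that met it, the limit on genes of other cell types left out 61 and 186. Among those that met both, the limit on secondary granule genes left out 15 and 31.

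Among the Siglecf-positive cells Retnlg was spread unevenly. The 5% of cells with the most Retnlg, 6 and 24 cells, held 73.2% and 72.3% of all Retnlg UMIs of the Siglecf-positive cells of the 10% Tet2-/- and 10% Tet2+/+ BMT libraries. Split at 20 Retnlg UMIs, a limit set after the values were seen, 12 of 110 and 50 of 474 cells deep enough to be thinned lay above it. These had Retnlg at 16000 and 12890 CPM after thinning, a level that the limit itself sets, while the other cells had 444 and 419.8 CPM and Siglecf-zero cells 14549 and 13001 CPM. Their Siglecf was at 375 and 430.0 CPM against 668 and 619 CPM in the rest. Most Siglecf-positive cells thus had Retnlg far below the summed level.

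Marker genes were patchy from cell to cell at this depth. The median cell had 1 Ltc4s UMI in each library, with a highest count of 11 and 13, and 10 Ccrl2 UMIs, with a highest count of 77 and 82. Il1b had a median of 117 and 108 UMIs and was seen in 109 of 110 and 477 of 477 cells. Cxcl10, an interferon-induced chemokine, was held by few cells, and in the 10% Tet2+/+ BMT library 24 cells carried 94.4% of its UMIs.

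Between the libraries, the targeted gene was read first. Tet2 had 81 UMIs, or 112 CPM, in the 10% Tet2-/- BMT Siglecf-positive cells against 346 UMIs, or 118 CPM, in the 10% Tet2+/+ BMT ones, and 157 against 117 CPM in Siglecf-zero cells. Reads of this kit come from the 3′ end of transcripts and the labels do not say which part of Tet2 was deleted, so that these counts check nothing about the genotype.

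A few Siglecf-positive cells of the 10% Tet2-/- BMT library stood apart. In 4 of its 110 cells, and in 0 of 477 of the 10% Tet2+/+ BMT library, Elane, Mpo, Prtn3 and Ctsg, the primary granule proteases and peroxidase of neutrophil precursors, took 1% or more of the UMIs. These 4 cells had 23847 to 30275 UMIs each, 14.8% of all UMIs of the 110 cells, and held 4702 of the 4726 UMIs of those 4 genes. They had 14 Siglecf UMIs but 0 Ltc4s and 0 Scimp UMIs. Values between the libraries are given without them where stated, a choice made after the data were seen. Between Siglecf-positive and Siglecf-zero cells 1160 genes passed without such cells, against 1200 with them.

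Of 2917 genes, 118 (4.05%) were more than 1.5-fold higher in Siglecf-positive cells of the 10% Tet2-/- BMT library than of the 10% Tet2+/+ BMT library and 132 (4.53%) were lower. Without the 4 cells, 117 (3.99%) and 132 (4.5%) of 2936 genes were, but only 48 of the higher and 76 of the lower genes were among them. With all cells thinned to 2000 UMIs, 176 of 1739 genes passed, among them 22 of the 118 and 40 of the 132. In Siglecf-zero neutrophils 64 (2.87%) and 46 (2.06%) of 2231 genes passed, and 20 higher and 14 lower genes passed in both kinds of neutrophil. The 14 highest genes with all cells, Elane, Prtn3, Mpo, Ctsg, Ms4a3, Fcnb, Serpinb1a, Hist1h2ae, Hist1h2ap, Stmn1, Ly6c2, Clec12a, Nkg7 and Ramp1, are genes of precursors or of dividing cells for the most part. Without the 4 cells Elane fell to 3.24 CPM, against 2964 CPM with them and 7.16 CPM in the 10% Tet2+/+ BMT library, and of the 14 only Clec12a stayed past the limit.

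Without those cells, Asprv1, a retroviral-like aspartic protease, had the largest ratio, with 138 CPM in the 10% Tet2-/- BMT library and 26.9 CPM in the 10% Tet2+/+ BMT library, 5.11-fold (3.71 to 7.03). Its 85 and 79 UMIs lay in a minority of the Siglecf-positive cells, 22 of 110 and 35 of 477. Asprv1 was also higher in Siglecf-zero neutrophils, at 524 against 214 CPM. Slc7a11, the cystine transporter, had 877 against 344 CPM, 2.55-fold (2.29 to 2.83), with 1221 against 655 CPM in Siglecf-zero cells. Thbs1, which encodes thrombospondin 1, had 584 against 233 CPM, 2.51-fold (2.20 to 2.86), and Clec12a, an inhibitory lectin, 87.4 against 29.7 CPM. Chil3 and Olr1, the oxidised LDL receptor, were 2.23-fold and 2.30-fold higher, and 2.05-fold and 2.40-fold higher in Siglecf-zero cells. Asprv1, Slc7a11, Chil3 and Olr1 were thus past the limit in both kinds of neutrophil. Between the Y-carrying cells of both libraries, 13 and 301 cells, the log2 ratio of Asprv1 was -1.95 and that of Olr1 -0.16. The 13 cells held 74306 UMIs in all. A sparse gene thus has few UMIs or none in them, and the 10 CPM added sets much of its ratio.

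The rest of the 15 highest genes without those cells were Hbegf, Rflnb, Slc2a3, Mir22hg, Stfa2l1, Cstdc4, Egr3, Il1f9 and Ndel1. Stfa2l1 and Cstdc4 are stefins, a family of near-identical genes between which reads can be split. Their log2 ratios lay between 0.94 and 1.17, but between the Y-carrying cells of both libraries they were -1.41 for Stfa2l1 and -3.91 for Cstdc4. Asprv1, Slc7a11, Thbs1, Slc2a3, Mir22hg, Stfa2l1, Cstdc4, Il1f9 and Ndel1 were lower in Siglecf-positive than in Siglecf-zero cells of both libraries.

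Lower in the 10% Tet2-/- BMT library were several interferon-induced genes, while chemokine genes were split. Ccl5 had 6.47 CPM in Siglecf-positive cells of that library without the 4 cells and 118 CPM in those of the 10% Tet2+/+ BMT library, and Cxcl10 had 61.5 against 243 CPM. Of 7 tested chemokine genes these 2 were lower, and Cxcl2 and Ccl6 were higher, with log2 ratios of 0.85 and 0.79. In Siglecf-zero cells 3 of 6 were higher and 1 lower. Ccl5 and Cxcl10 rested on few cells, Ccl5 on 4 of 110 and 52 of 477 and Cxcl10 on 13 of 110 and 52 of 477. Cxcl14 had 4 UMIs in 3 cells against 160 UMIs in 57 cells, and was almost absent from Siglecf-zero cells at 0.0637 and 0.515 CPM. Oser1, a gene of the oxidative stress response, had 43.7 against 175 CPM, and was seen in 21.8% against 54.9% of the Siglecf-positive cells. Of 11 tested interferon-stimulated genes 5 were lower and 0 higher with or without the 4 cells, with a median log2 ratio of -0.56 with them, against -0.05 over all genes. In Siglecf-zero cells 7 of 13 were lower, with a median of -0.60.

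The rest of the 15 lowest genes without the 4 cells were Pmf1, Hist1h1d, Ifi30, Swap70, Hist1h1b, Ifit1, Gpr84, Hist1h2ap, Glrx2, Id1 and Gbp2. Id1, an inhibitor of transcription factors, was the most abundant of them at 162 against 349 CPM. Hist1h1b and Hist1h2ap were higher with the 4 cells, at 237 against 67.9 CPM and 546 against 64.5 CPM, and lower without them, at 21.04 and 24.3 CPM. The marker genes themselves differed little or were lower, with Ltc4s at 286 against 296 CPM and Ccrl2 at 2528 against 2332 CPM without the 4 cells. Scimp was at 238 against 387 CPM, 0.615-fold (0.514 to 0.731), and Igfbp6 at 317 against 469 CPM, 0.676-fold (0.579 to 0.786).

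Il1a, Tnf and Csf1 passed 1.5-fold between the libraries in Siglecf-zero but not in Siglecf-positive cells. Il1a had 469 CPM without the 4 cells and 407 CPM in Siglecf-positive cells of the 10% Tet2-/- and 10% Tet2+/+ BMT libraries, against 125 and 71.1 CPM in Siglecf-zero cells. Tnf had 262 and 183 CPM, against 165 and 72.5 CPM, and Csf1 309 and 294 CPM, against 318 and 169 CPM. The log2 ratios of Il1a, Tnf and Csf1 were 0.20, 0.49 and 0.07 in Siglecf-positive and 0.73, 1.09 and 0.88 in Siglecf-zero cells. That difference was not tested. Il1b had 22429 and 18668 CPM in Siglecf-positive and 15664 and 13617 CPM in Siglecf-zero cells.

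**Figure D5:**
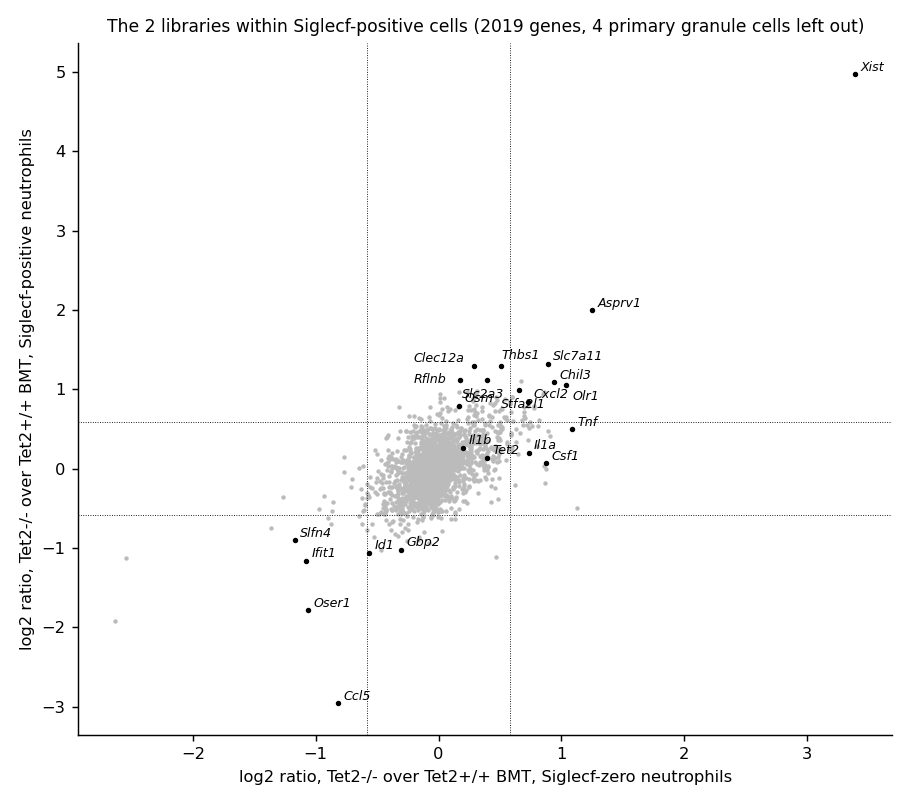
Log2 ratio of 10% Tet2-/- over 10% Tet2+/+ BMT for 2019 genes, in Siglecf-zero neutrophils on the horizontal and in Siglecf-positive neutrophils without the 4 primary granule cells on the vertical axis, with 1.5-fold dotted. Asprv1 lies high on both axes, Ccl5 lies low at -2.96 on the vertical and -0.82 on the horizontal axis, and Il1a, Tnf and Csf1 lie within the limits on the vertical axis only.

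Sex-linked genes moved with the comparison. In the 10% Tet2-/- BMT library Xist, the RNA of the inactive X chromosome, was seen in 60.0% (50.2 to 69.2) of Siglecf-positive cells and in 21.1% of Siglecf-zero neutrophils, at 342 and 95.7 CPM, and Y-linked genes summed to 46.9 and 17.1 CPM. In the 10% Tet2+/+ BMT library Xist had 0 UMIs in Siglecf-positive cells and Y-linked genes summed to 199 CPM there and to 209 CPM in Siglecf-zero cells. Of the Siglecf-positive cells of the 10% Tet2-/- BMT library, 63 carried Xist alone, 13 Y-linked genes alone, 3 both and 31 neither, so that the library held both Xist-carrying and Y-carrying cells. When the 63 cells with Xist were set against the 301 with Y-linked genes, 423 genes passed 1.5-fold between the libraries, and with the 13 Y-carrying against the same 301 cells 827 did, over 74306 UMIs in the 13 cells. Sex and marrow genotype cannot be told apart in these values.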

How the data were processed

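Gingival CD11b+ cells of 1 library per group were measured by 3' tag sequencing (Chromium Next GEM v3.1), per the labels' protocols. The authors deposited raw UMI counts per gene and barcode, aligned to mm10 with Cell Ranger 6.1.2 per the submitters' processing notes, while the matrix header names version 4. Libraries held 93919724 and 100782700 UMIs over 32285 genes in the 10% Tet2-/- and 10% Tet2+/+ BMT libraries. The cell filter removed 248 and 489 barcodes of 500 UMIs or more, and 31 barcodes occurred among the kept cells of both libraries, 0 of them among Siglecf-positive cells. Doublets were not called or removed, and leaving out the deepest 5% of cells was an alternative.

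UMIs were summed over cells, scaled to CPM and compared as log2 ratios with 10 CPM added, among genes with 50 CPM or more on either side and 100 UMIs or more over both. Ratios printed as folds have no pseudocount. Intervals are exact (Poisson for CPM, conditional binomial for ratios, Clopper-Pearson for shares, 95%) and cover counting error only. With 1 library per group, and cells not being replicates, no test was run. The ratio between libraries and its interval were tested on simulated summed counts with known folds and no variation between cells. The cell rule, thinning and free RNA estimate were not tested in this way. Named genes were the 20 highest and 15 lowest between Siglecf-positive and Siglecf-zero cells by the smaller ratio of both libraries, the 15 highest and 15 lowest between libraries with and without the primary granule cells, 16 genes always given, and the leading members of each gene list. A few genes within that rule are not reported here. Fas, Mcl1, Fpr1 and other list members were named to account for their list. The members and lists were chosen with earlier results of these data known, and leaving out the primary granule cells was chosen after seeing the data. Of the gene identifiers, 32158 matched GENCODE M21. Python 3.11.15, numpy 2.4.6, scipy 1.17.1, pandas 2.3.3 and matplotlib 3.10.9 were used.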

Additional observations from a re-analysis of the deposited data

Results flagged for a closer look

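Spp1, which encodes osteopontin, differed in opposite directions between the libraries in the 2 kinds of neutrophil. Its log2 ratio of 10% Tet2-/- over 10% Tet2+/+ BMT was -0.83 in Siglecf-positive cells, at 17.9 against 39.6 CPM, and 1.71 in Siglecf-zero cells, at 271 against 75.8 CPM. The difference was not tested, and in Siglecf-positive cells Spp1 was below the level of 50 CPM asked for elsewhere.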

How the results depend on the processing

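The Siglecf-positive share was lower in the 10% Tet2-/- BMT library under every setting tried. In the 10% Tet2-/- and 10% Tet2+/+ BMT libraries it was 7.71% and 18.2% with 1 Siglecf UMI or more, 1.53% and 5.63% with 3 or more, 3.80% and 11.2% with S100a8 and S100a9 at 1% or more, and 1.19% and 3.52% after thinning. In the 10% Tet2+/+ BMT library it was also 8.08% with S100a8 and S100a9 at 5% or more and 8.72% with at most 5% mitochondrial UMIs. With genes admitted from 10 CPM and 20 UMIs, 2513 genes passed between Siglecf-positive and Siglecf-zero cells, against 1200, and 755 between the libraries, against 250. Between the libraries 423 passed when cells with Xist were set against cells with Y-linked genes, and 827 with the Y-carrying cells of both. Of 103 named genes called between Siglecf-positive and Siglecf-zero cells, 79 stayed past under TMM, and the ratios of Soat1, Hsp90aa1 and Chil3 changed sign in 1 library. Of 56 medians over 28 lists 18 changed sign under TMM and 15 under median-of-ratios scaling. Those of them past 1.5-fold as reported were the unfolded protein response at -0.0103 in the 10% Tet2-/- and heat shock at -0.0016 in the 10% Tet2+/+ BMT library.

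Between the libraries, log2 ratios that changed sign without the primary granule cells were Elane -0.37, Mpo -0.44, Ctsg -0.56, Ms4a3 -0.23, Serpinb1a -0.17, Hist1h2ae -0.24, Hist1h2ap -1.12, Stmn1 -0.65, Nkg7 -1.56 and Hist1h1b -1.33. Elane, Mpo, Ctsg and Ms4a3 then had 2, 1, 0 and 0 UMIs in the 10% Tet2-/- BMT Siglecf-positive cells. The 10% Tet2+/+ BMT ones had 21, 17, 14 and 5 UMIs. These genes were thus near absent from both, below the 50 CPM asked for elsewhere. Without the deepest 5% of cells Hist1h2ap was at -0.80 and Hist1h1b at -1.29. With the Y-carrying cells of both libraries the ratios that changed sign were Elane -0.73, Prtn3 -0.78, Mpo -0.63, Ctsg -0.38, Ms4a3 -0.26, Serpinb1a -1.30, Hist1h2ap -0.40, Stmn1 -0.63, Nkg7 -1.07, Ramp1 -0.64, Asprv1 -1.95, Gbp2 0.59, Olr1 -0.16, Stfa2l1 -1.41, Cstdc4 -3.91, Hist1h1b -3.05 and Atf6 0.083. The 13 such cells of the 10% Tet2-/- BMT library held 74306 UMIs, so that sparse genes have few UMIs or none there. The cause was not tested beyond what each setting leaves out. No paired analysis was possible because each group has 1 library. With 110 cells and 725328 UMIs, the Siglecf-positive cells of the 10% Tet2-/- BMT library limit every value between the libraries.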
